A study of Mus musculus with 14 samples.

Results

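The SIBLING genes (small integrin-binding ligand, N-linked glycoproteins) *Dmp1*, *Ibsp*, *Spp1*, *Mepe* and *Dspp* were followed in Ocy454 cells by RNA-sequencing. The 5 members were chosen by gene name, from 39179 genes in the differentiation table and 35886 genes in the sorted libraries. Ocy454 is a mouse osteocyte-like line, conditionally immortalized by a thermosensitive large T antigen that all groups carry, and it stands here as 1 line only. The cells divided at 33 °C and were moved to 37 °C at confluence. In the differentiation experiment, RNA was collected on days 1, 7, 10 and 14 after the shift, with 2 biological replicates per day and day 1 as the reference. In the sorting experiment, live cells were labelled for surface CD61 (integrin beta-3) after 17 days at 37 °C. The top 10% (CD61 high) and bottom 10% (CD61 low) by signal were kept, with 3 libraries of each. The study describes 3 independent groups of cells for this sort, and the labels do not say which CD61 high and CD61 low libraries share a group. The p-values below measure the spread between these samples of 1 cell line.

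The SIBLING proteins are acidic, heavily phosphorylated proteins that bone and dentin cells secrete into the matrix before and during mineralization. They share an Arg-Gly-Asp (RGD) tripeptide that binds integrins, among them the alpha-v beta-3 integrin of which CD61 is a subunit, and serine phosphates and acidic stretches that bind calcium and hydroxyapatite. Bone sialoprotein (*Ibsp*) marks matrix-forming osteoblasts, osteopontin (*Spp1*) is made by many cell types and inhibits crystal growth, *Dmp1* and *Mepe* are typical of osteocytes, and *Dspp* is best known from the odontoblasts that form dentin. Loss of *Dmp1* or of the peptidase *Phex* raises FGF23 and causes hypophosphatemic rickets.

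All 5 genes lie on the plus strand of chromosome 5 (GRCm39, GENCODE M39) in a stretch of 270658 bases, in the order *Dspp* (ENSMUSG00000053268, chr5:104318578-104327993), *Dmp1* (ENSMUSG00000029307, chr5:104345340-104361974), *Ibsp* (ENSMUSG00000029306, chr5:104447037-104459338), *Mepe* (ENSMUSG00000053863, chr5:104473195-104486477) and *Spp1* (ENSMUSG00000029304, chr5:104582165-104589235). The gaps between neighbouring members were 17.3, 85.1, 13.9 and 95.7 kb. The coding sequence of each member held a single in-frame run of codons for Arg, Gly and Asp, always in the last exon except in *Spp1*, where it lay in exon 6 of 7. The 33 bases around it are shown because this is the part of each protein that CD61-containing integrins can bind, and capitals mark the 9 bases that encode RGD. The 3 codons differ between members while the tripeptide is the same.
Dspp, exon 5 of 5, chr5:104325061-104325093: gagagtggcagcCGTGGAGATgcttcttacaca
Dmp1, exon 6 of 6, chr5:104360361-104360393: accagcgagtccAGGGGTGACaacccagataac
Ibsp, exon 7 of 7, chr5:104458329-104458361: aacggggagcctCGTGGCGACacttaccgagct
Mepe, exon 3 of 3, chr5:104485396-104485428: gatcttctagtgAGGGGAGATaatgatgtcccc
Spp1, exon 6 of 7, chr5:104587335-104587367: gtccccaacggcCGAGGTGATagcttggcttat

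Promoter windows of RefSeq (GRCm38.p6) were matched for 4 of the 5 members and found by exact match on GRCm39. The part from 100 bases before to 12 bases after the RefSeq start site is shown for the window of each member that holds both an ATTGG (the CCAAT box on the opposite strand) and a downstream A/T-rich element. Capitals mark ATTGG and the element, which is TTTAAA in *Dmp1*, *Mepe* and *Spp1* and TTTATA in *Ibsp*.
Dmp1, chr5:104350383-104350494, plus strand: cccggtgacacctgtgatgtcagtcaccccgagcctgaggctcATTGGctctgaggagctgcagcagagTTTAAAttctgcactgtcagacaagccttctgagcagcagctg
Ibsp, chr5:104447053-104447164, plus strand: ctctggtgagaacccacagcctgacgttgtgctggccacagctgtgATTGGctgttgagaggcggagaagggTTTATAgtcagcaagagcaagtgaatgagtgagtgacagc
Mepe, chr5:104473095-104473206, plus strand: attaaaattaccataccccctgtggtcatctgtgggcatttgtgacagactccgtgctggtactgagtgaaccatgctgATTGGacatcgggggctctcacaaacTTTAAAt
Spp1, chr5:104582877-104582988, plus strand: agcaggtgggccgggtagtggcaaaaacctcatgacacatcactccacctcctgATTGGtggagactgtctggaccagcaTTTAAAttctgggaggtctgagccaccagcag

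These 4 windows were selected by the spacing of the pair: the element begins 26 bases after the start of ATTGG, on the strand of the gene. Of 32544 different promoter windows of 300 bases, 17 (0.0522%) hold ATTGG followed at this distance by TTTAAA or TTTATA, the members included. The pair and its spacing were taken from these sequences after they had been read. The equal spacing and the share are therefore only a description of these windows. ATTGG began at position -57 in *Dmp1*, -54 in *Ibsp*, -46 in *Spp1* and -21 in *Mepe*, counted from the RefSeq start. The hexamer ACCACA, or TGTGGT on the other strand, the core bound by RUNX proteins, occurred within the 300 bases of *Dmp1*, *Spp1* and *Mepe* and in 16.7% of all windows. *Dmp1* and *Spp1* each have another RefSeq window, at start sites 104345441 and 104584058, without this pair.

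The recovered reads per differentiation library ranged from 27518605 to 34311238, and the gene sums of each sorted library from 18684007 to 19104695 estimated counts. The expression of *Itgb3*, which encodes the sorted protein, averaged 5.65 TMM-normalized CPM (CPM is the counts relative to the library total, here after a scaling that equalizes most genes) in CD61 low and 111 in CD61 high libraries. Of 8 osteoblast markers, all 8 were above 1 CPM on days 7, 10 and 14 and in both sorted groups. Of 8 osteocyte markers, 6 were above 1 CPM on day 14 and in CD61 high cells. The hormone gene *Fgf23*, a defining osteocyte marker, had no read in any differentiation library, and *Mepe*, another, stayed below 1 CPM. Of 8 osteoclast markers, 1 or 2 were above 1 CPM in each group. *Ctsk*, the main protease of osteoclasts, was at 61.2 to 87.4 CPM in the means of the days and at 18.6 and 21.2 TMM-normalized CPM in CD61 low and CD61 high cells, while *Calcr* and *Dcstamp* were at 0 in all groups. None of 5 endothelial markers was above 1 CPM.

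The first question was how the SIBLING genes change as Ocy454 cells differentiate. *Ibsp* rose most by day 7 and had the highest CPM of the members from then on. It had 224 and 217 CPM in the replicates of day 1, 5798 and 5729 CPM on day 7, 3187 and 3426 CPM on day 10, and 4252 and 4297 CPM on day 14. The replicates lay within narrow ranges, every later library was above both day 1 libraries, and no 2 days overlapped. On day 7, *Ibsp* was the gene with rank 5 by CPM in both libraries, from ranks 768 and 815 on day 1. The means were 220.8 ± 4.77, 5763 ± 48.8, 3306 ± 169 and 4274 ± 31.7 CPM on days 1, 7, 10 and 14 (SD, n = 2). The Log2FC on the log2(CPM + 1) scale was 4.70 on day 7 (SE 0.04, adjusted p = 1.1e-31), 3.90 on day 10 (SE 0.04, adjusted p = 4.9e-30) and 4.27 on day 14 (SE 0.04, adjusted p = 6.8e-31) (limma, Benjamini-Hochberg). Between day 7 and day 10 the *Ibsp* mean went to 0.574 of its value, a Log2FC of -0.80 (adjusted p = 2.4e-14, limma) that did not pass -1. From day 10 to day 14 the Log2FC was 0.37 (adjusted p = 3.4e-08, limma), also short of the threshold of 1.

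*Dmp1*, which encodes an acidic matrix protein of osteocytes, started at about 1 CPM and was higher on each later day, with a small last step. It had 0.915 and 1.00 CPM on day 1, from 31 and 32 reads. It then had 22.3 and 20.5 CPM on day 7, 44.3 and 49.0 CPM on day 10, and 52.1 and 57.6 CPM on day 14. The libraries of any day lay above all those of earlier days. The mean CPM was 22.3, 48.6 and 57.2 times that of day 1 on days 7, 10 and 14. The pseudocount of 1 makes the fitted changes smaller, with Log2FC of 3.51, 4.60 and 4.83 (SE 0.08 each, largest adjusted p = 7e-23, limma). The edgeR quasi-likelihood test on the recovered reads, which needs no pseudocount of this size, gave 5.87 on day 14 (SE 0.12, adjusted p = 2e-23). *Dmp1* also rose between day 7 and day 10, by a Log2FC of 1.09 (SE 0.08, adjusted p = 2.2e-11, limma). Between day 10 and day 14 the Log2FC was 0.23 (adjusted p = 0.017, limma), and 0.29 in edgeR on the recovered reads (adjusted p = 0.00033).

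*Spp1*, which encodes osteopontin, was the most abundant member on day 1 and moved on a different schedule. Its values were 372 and 374 CPM on day 1, 337 and 327 CPM on day 7, 783 and 868 CPM on day 10, and 605 and 626 CPM on day 14. The day 7 libraries were below those of day 1, and the day 10 libraries were the highest. The Log2FC against day 1 was -0.17 on day 7 (adjusted p = 0.00086), 1.14 on day 10 (SE 0.04, adjusted p = 8.9e-19) and 0.72 on day 14 (adjusted p = 1.5e-14) in limma, so that only the value on day 10 passed the threshold. *Spp1* rose by a Log2FC of 1.31 from day 7 to day 10 (SE 0.04, adjusted p = 8.7e-19, limma), over the same interval in which *Ibsp* had a Log2FC of -0.80. Macrophages also make osteopontin, and of 10 macrophage markers 2 were above 1 CPM on each day. Their summed level was 7.72 to 8.27 CPM on day 1, 4.83 to 5.17 CPM on day 7, 10.4 to 11.9 CPM on day 10 and 6.35 to 7.49 CPM on day 14, so that it was lowest and highest on the same days as *Spp1*. The lysosomal gene *Cd68*, 1 of the 2, had 1.66, 1.69, 4.64 and 3.34 CPM on days 1, 7, 10 and 14. *Cd68* was called higher on day 10 against day 1 (adjusted p = 1.9e-08, limma) and against day 7 (adjusted p = 5.5e-08, limma). The other of the 2 had Log2FC of -0.58, 0.20 and -0.68 on days 7, 10 and 14 against day 1, beside 0.01, 1.08 and 0.71 for *Cd68*. *Csf1r*, the receptor of macrophage growth, had 0.633, 0.0678, 0.210 and 0.324 CPM, and *Adgre1*, *C1qa* and *C1qb* were at 0 on each day. The part of such cells in the *Spp1* values was not tested.

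**Figure D1:**
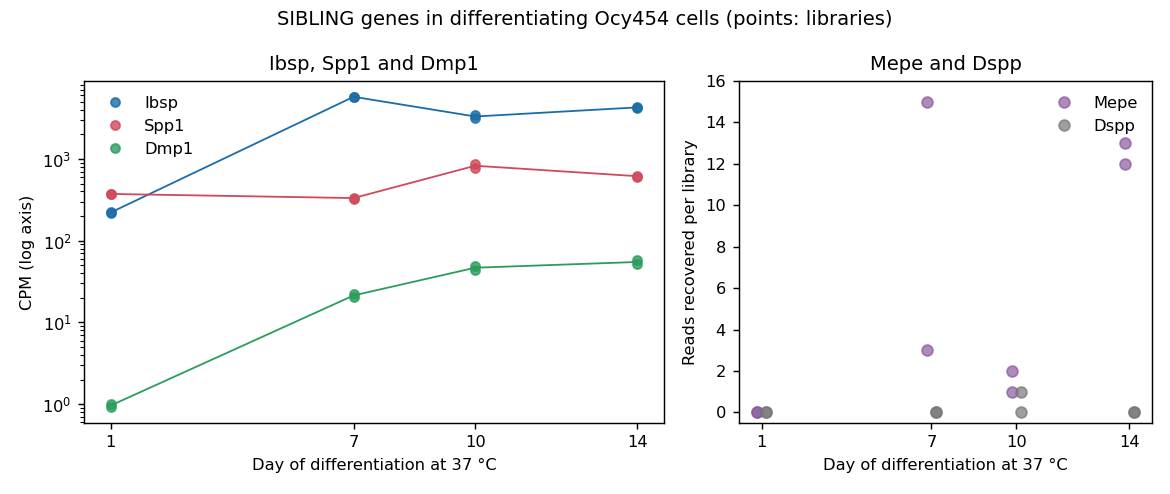
CPM of Ibsp, Spp1 and Dmp1 (left, log axis, lines through the daily means) and recovered reads of Mepe and Dspp (right) against the day of differentiation, with 1 point per library. Ibsp peaks on day 7 with 5798 and 5729 CPM, Spp1 on day 10, and Dmp1 is highest on day 14 with 52.1 and 57.6 CPM.

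*Mepe*, which encodes a matrix phosphoglycoprotein of osteocytes, was at the edge of detection. It had 0 reads in both day 1 libraries, which allows up to 0.0456 CPM over their 65759468 reads. It had 15 and 3 reads on day 7, 2 and 1 on day 10, and 12 and 13 on day 14. The replicates of day 7 lay far apart, while those of day 14 were alike. The pooled values were 0.291 CPM on day 7 (exact 95% Poisson interval 0.173 to 0.461), 0.0488 CPM on day 10 (0.0101 to 0.143) and 0.404 CPM on day 14 (0.262 to 0.597), intervals that cover counting error only. Of the 18 reads on day 7, 15 came from replicate 1, and replicate 2 alone had 0.106 CPM. It did not reach 1 CPM in any library and so was not among the genes tested with limma. *Dspp*, the dentin member, had 1 read in 1 library of day 10 and 0 in the other 7, and the count of 0 over both libraries allows up to 0.0456 CPM on day 1, 0.0486 CPM on day 7 and 0.0485 CPM on day 14.

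On day 7, 2 of the 3 members tested (*Ibsp* and *Dmp1*) were called higher, which needed an adjusted p under 0.01 with a Log2FC over 1. Of the 12725 genes tested, 4.49% were called higher and 4.62% lower. On day 10 all 3 were called higher, against 6.06% of all genes (4.42% lower), and on day 14 *Ibsp* and *Dmp1* were, against 7.51% (5.9% lower). Between day 7 and day 10, *Dmp1* and *Spp1* were called higher, where 1.43% of all genes were and 0.786% were called lower. Between day 10 and day 14 limma called 0 members, and edgeR on the recovered reads also called 0. All 3 had an unadjusted p below 0.05 in limma, 2 of them higher and 1 lower. The lower one, *Spp1*, had a Log2FC of -0.42 (adjusted p = 1.9e-09, limma), which did not pass -1. An adjusted p below 0.01, at any Log2FC, held for 52.8% of all genes. Of all genes limma called 2.09% higher and 0.872% lower, and edgeR called 5.74% in either direction. The median Log2FC of all genes was between -0.05 and 0.07 in these comparisons. The day comparisons share the day 1, day 7 or day 10 libraries, so their values are not independent of each other.

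**Figure D2:**
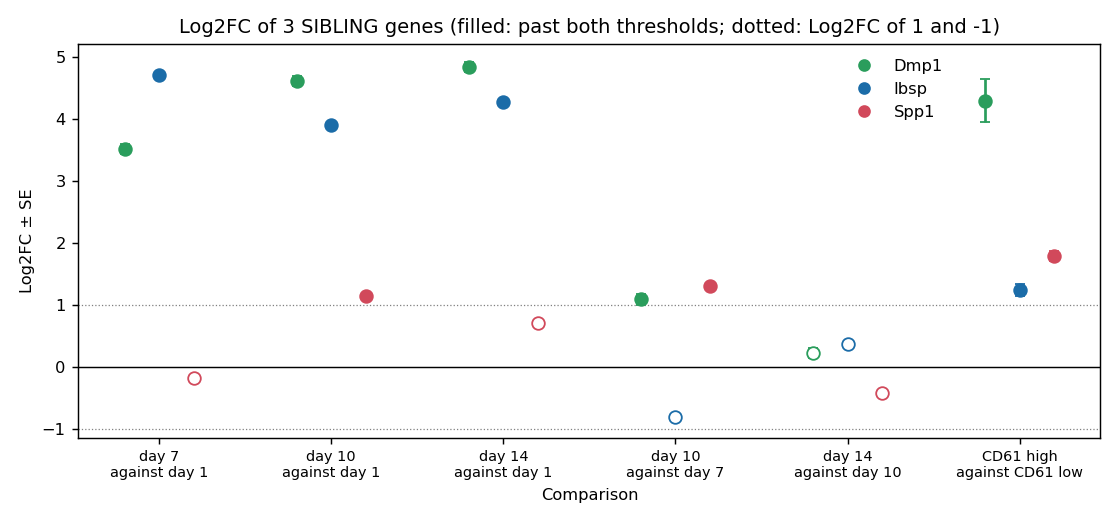
Log2FC with its SE for Dmp1, Ibsp and Spp1 in 5 comparisons of days (limma) and in the sort (edgeR), where filled points passed both thresholds and dotted lines mark Log2FC of 1 and -1. From day 7 to day 10 Dmp1 (1.09) and Spp1 (1.31) lie above 0 and Ibsp (-0.80) lies below.

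The makeup of the SIBLING transcripts shifted with these schedules. Together the 5 genes took 0.0595% of the reads on day 1, 0.612% on day 7, 0.418% on day 10 and 0.494% on day 14 (means, n = 2). Of the summed CPM of the members, *Ibsp* made up 37.1 ± 0.615% on day 1, 94.2 ± 0.0778% on day 7, 79.1 ± 0.361% on day 10 and 86.4 ± 0.240% on day 14 (SD, n = 2). Per kb of gene length, *Ibsp* was at 0.483 and 0.502 times the level of *Spp1* in the day 1 libraries. The ratio of these levels was 14.3 and 14.6 on day 7, 3.28 and 3.39 on day 10, and 5.71 and 5.85 on day 14. The order of the levels per kb was therefore *Spp1*, *Ibsp*, *Dmp1* on day 1 and *Ibsp*, *Spp1*, *Dmp1* on every later day, and no replicate of a neighbouring member overlapped. *Spp1* stayed far above *Dmp1* throughout, by a ratio per kb of 626 ± 38.2 on day 1 and 18.0 ± 0.849 on day 14 (SD, n = 2).

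The second question was whether the members differ between cells with high and low surface CD61 at 17 days. *Dmp1* separated the groups most. Its TMM-normalized CPM was 0.574, 0.328 and 0.879 in the CD61 low libraries and 16.2, 8.87 and 9.94 in the CD61 high libraries, from 7 to 18 and 154 to 276.3 estimated counts. The groups did not overlap, and CD61 high replicate 1 was well above the other 2. The means were 0.594 ± 0.276 and 11.7 ± 3.96 (SD, n = 3), a 19.6-fold difference and a Log2FC of 4.29 (SE 0.34, adjusted p = 4.8e-06, edgeR quasi-likelihood test). In these bulk libraries, a smaller share of *Dmp1*-expressing cells cannot be told apart from less *Dmp1* RNA per cell.

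*Spp1* and *Ibsp* were also higher in CD61 high cells, by smaller factors. *Spp1* had 138.7, 127.1 and 116.5 TMM-normalized CPM in CD61 low and 465, 437 and 423 in CD61 high libraries, 3.46-fold higher by the means, with a Log2FC of 1.79 (SE 0.08, adjusted p = 2.7e-07, edgeR). *Ibsp* had 975, 825 and 1066 in CD61 low and 2300, 2144 and 2344 in CD61 high libraries, 2.37-fold higher, with a Log2FC of 1.24 (SE 0.10, adjusted p = 3.7e-06, edgeR). Neither gene's groups overlapped, and the replicates of a group were close together. All 3 members tested were called higher, where 4.84% of the 12077 genes were and 4.37% were called lower. *Ibsp* is the member near the threshold. Its Log2FC was 0.94 with scaling by library size alone, which moves the median of all genes to -0.29, and 0.94 on log2(TPM + 1) in limma, and in a test against a Log2FC of 1 its adjusted p was 0.068 (edgeR). For *Dmp1* the log2(TPM + 1) scale gave 2.43.

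*Mepe* had estimated counts of 0 in all 3 CD61 low libraries and of 1, 7 and 0 in the CD61 high libraries. The pooled 8 counts are 0.140 CPM (exact 95% Poisson interval 0.0605 to 0.276). The same interval for the CD61 low libraries runs from 0 to 0.0653 CPM, so the intervals overlap. They cover counting error only, and 7 of the 8 counts came from CD61 high replicate 2. *Mepe* did not pass the filter on low counts and was not tested. *Dspp* had a count of 0 in all 6 libraries, with limits of 0.0531 CPM for CD61 low and 0.0526 CPM for CD61 high libraries.

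**Figure D3:**
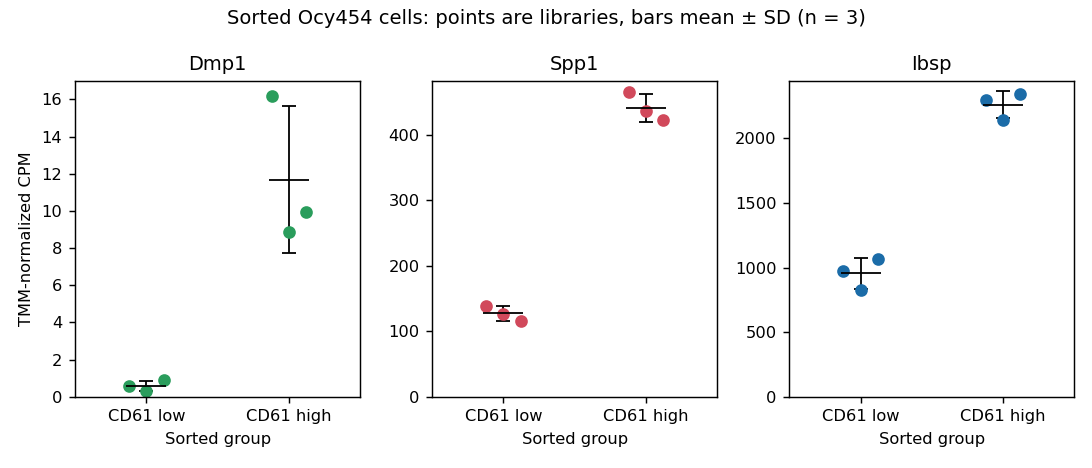
TMM-normalized CPM of Dmp1, Spp1 and Ibsp in CD61 low and CD61 high libraries, with 1 point per library and bars for the mean and SD (n = 3), each axis starting at 0. The groups do not overlap for any of the 3 genes, and Dmp1 in CD61 high cells runs from 8.87 to 16.2.

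The 5 genes took 0.12 ± 0.0118% of the gene counts in CD61 low and 0.245 ± 0.00839% in CD61 high libraries (SD, n = 3). *Ibsp* made up 88.1 ± 1.80% and 83.3 ± 0.973% of the members' sum. By summed TPM, a level per length, *Ibsp* was above *Spp1* and *Spp1* above *Dmp1* in all 6 libraries, with means of 966.8, 193.9 and 0.436 TPM in CD61 low and 1850, 540.6 and 6.95 TPM in CD61 high cells. The ratio of *Spp1* to *Dmp1* levels was 527.7 ± 263 in CD61 low and 83.2 ± 21.9 in CD61 high cells (SD, n = 3). Osteoblast markers moved with the sort: all 8 were called higher in CD61 high cells, where 4.84% of all genes were, and their summed level was 27000 to 33000 TMM-normalized CPM in CD61 low against 76000 to 81900 in CD61 high libraries. Osteocyte markers, *Dmp1* and *Mepe* among them, summed to 184 to 229 and 472 to 517, and 6 chondrocyte markers to 39.4 to 48.7 and 100 to 118. Of the osteocyte markers, 4 of 6 tested were called higher and 0 lower, with Log2FC from -0.48 to 4.29. Of the chondrocyte markers, 3 of 4 tested were called higher (*Sox9* 1.37, *Col2a1* 1.83 and *Comp* 1.63), and *Sox9* alone had 36.7 and 94.5. Whether these shifts have a part in the SIBLING differences was not tested. Of the 10 macrophage markers, 2 were above 1 CPM, and their summed level was 17.1 to 22.7 in CD61 low and 12.5 to 13.2 in CD61 high libraries, opposite to *Spp1*.

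At the transcript level, the 7-exon *Spp1* transcript that starts at 104582165 carried 86.4% of the *Spp1* counts in CD61 low replicate 1 and 91.3% to 93.8% in the other 5 libraries. Spp1-205, which starts at 104582987 beside the promoter window shown above, carried 12.3% in CD61 low replicate 1 and 4.48% to 7.79% elsewhere. Spp1-204, from the start at 104584058, carried 0.96% to 2.84%. The shares of the groups overlapped for Spp1-205 and Spp1-204. For *Dmp1* and *Ibsp* the files list 1 transcript each, with starts at 104350476 and 104447037, so their counts say nothing about which start was used. The *Ibsp* start and the main *Spp1* start lie upstream of the stretches shown above for these genes, so the marked motifs of both fall within the span of the transcript that carries most or all of the counts.

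The genes whose products act on SIBLING proteins were then examined from lists of receptors, proteases, kinases, transcription factors and relatives. Of 48 listed genes, 32 were tested in the differentiation experiment and 31 in the sort. Against day 1, 8 were called higher and 4 lower on day 7, 10 higher and 4 lower on day 10, and 9 higher and 6 lower on day 14. Of all genes tested, 4.49% were called higher and 4.62% lower on day 7, 6.06% and 4.42% on day 10, and 7.51% and 5.9% on day 14. In CD61 high cells edgeR called 14 higher and 0 lower, and DESeq2 also called 14 and 0. *Itgb3*, which encodes the sorted protein, is among the 14. An unadjusted p below 0.05 held for 21 higher and 5 lower. The adjusted p threshold of a call, taken without that on Log2FC, was passed by 35.4% of all genes in the sort. Of all genes, 4.84% were called higher and 4.37% lower by edgeR and 4.82% higher by DESeq2. With scaling by library size alone 8 were called higher and 1 (*Itga9*) lower, where 2.62% of all genes were called higher and 8% lower. The median Log2FC of the listed genes tested was 0.32 on day 14 and 0.91 in the sort, where that of all genes was -0.03 and 0.00. Under quantile normalization the day 14 median of the list was 0.09 and that of all genes -0.05.

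Among 11 listed receptors, which are integrin subunits and CD44, 8 were tested. On day 14, 1 was called higher (*Itgb3*, 2.33) and 1 lower (*Itga5*, the fibronectin receptor subunit, -1.07), beside 7.51% and 5.9% of all genes. *Itgb8*, which pairs with alpha-v, was called higher on day 10 (1.76) and lower from day 10 to day 14 (-1.58), with 3.38, 5.14, 13.7 and 3.91 CPM on days 1, 7, 10 and 14. *Itgav*, the partner subunit of *Itgb3*, had 178.3 CPM on day 1 and 145.5 CPM on day 14, with a Log2FC of -0.29. In the sort *Itgb3* (4.30, fixed by the sort) and *Itgb1* (1.11, adjusted p = 1.5e-06, edgeR), the common beta-1 subunit, were called higher, while *Itgav* was at 0.23 (adjusted p = 0.17, edgeR). With scaling by library size alone *Itgb1* was not called, and *Itga9* was called lower.

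Of 14 proteases, 9 were tested in the differentiation experiment. *Phex*, the endopeptidase whose loss causes hypophosphatemia, was higher than on day 1 at each time, with Log2FC against day 1 of 3.71 on day 7, 3.34 on day 10 and 5.60 on day 14 (largest adjusted p = 4.1e-21, limma). *Mmp2*, *Tll1* and *Mmp9* were lower on day 14 than on day 1, with Log2FC of -1.56, -2.01 and -1.10 (largest adjusted p = 6.5e-07, limma). *Mmp9* was lowest on day 10, with 2.38, 1.35, 0.148 and 0.578 CPM on days 1, 7, 10 and 14. *Bmp1*, which cleaves DMP1 and DSPP precursors, had a Log2FC of -0.80 on day 14. In the sort *Phex* (2.17), *Bmp1* (1.42) and *Mmp2* (1.16) were called higher of 7 tested, with adjusted p of at most 2.7e-06 (edgeR), where 4.84% of all genes were called higher. *Mmp2* thus was called lower with time and higher with CD61, but its call in the sort was lost with scaling by library size alone.

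All 4 kinase genes were tested. *Fam20c*, the kinase that phosphorylates secreted SIBLING proteins, went from 76.1 to 172.9, 213 and 143.5 CPM on days 7, 10 and 14, and was called higher on day 7 (Log2FC 1.17) and day 10 (1.47) but not on day 14 (0.91, adjusted p = 5.1e-17, limma) or in the sort (0.91, adjusted p = 2.3e-06, edgeR). *Fam20a*, its pseudokinase partner, fell by 1.83 on the log2 scale on day 14. *Pkdcc*, a secreted tyrosine kinase, was called higher in the sort (1.27), a call that was lost with scaling by library size alone.

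Of 10 transcription factors tied to SIBLING expression, most passed the test in both experiments. On day 14, 7 of 9 tested were called higher, with *Dlx3* (Log2FC 4.45), *Sp7* (2.34) and *Mef2c* (2.08) the largest, beside 7.51% of all genes. In the sort 7 of 10 were, beside 4.84% of all genes, with *Dlx5* (1.78), *Sp7* (1.65) and *Vdr* (1.49) the largest. The homeobox gene *Dlx3* had 2.10, 83.1, 52.7 and 66.5 CPM on days 1, 7, 10 and 14, highest on day 7 like *Ibsp*. *Runx2*, the factor required for osteoblast formation, was called higher on day 7 (1.03) and day 10 (1.09) and in the sort (1.23), but not on day 14 (0.70). With scaling by library size alone *Runx2* was not called in the sort, and 5 of 9 factors tested were called higher, beside 2.62% of all genes. *Msx2*, tested in the sort alone, was at -1.04 (adjusted p = 0.055, edgeR). *Atf4* was called in none of these comparisons. The study itself names *Sp7*, *Phex*, *Itgb3*, *Dmp1* and *Spp1* from these libraries, so their counts are not independent evidence of direction. Among 9 relatives of the SIBLING genes, *Sparc*, the abundant collagen-binding protein of bone, was called higher in the sort (1.17). The call of *Sparc* was lost with scaling by library size alone. *Smoc2* fell by 2.81 on the log2 scale on day 14, and the enamel genes *Ambn*, *Amelx*, *Amtn* and *Odam* had no count in any library.

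**Figure D4:**
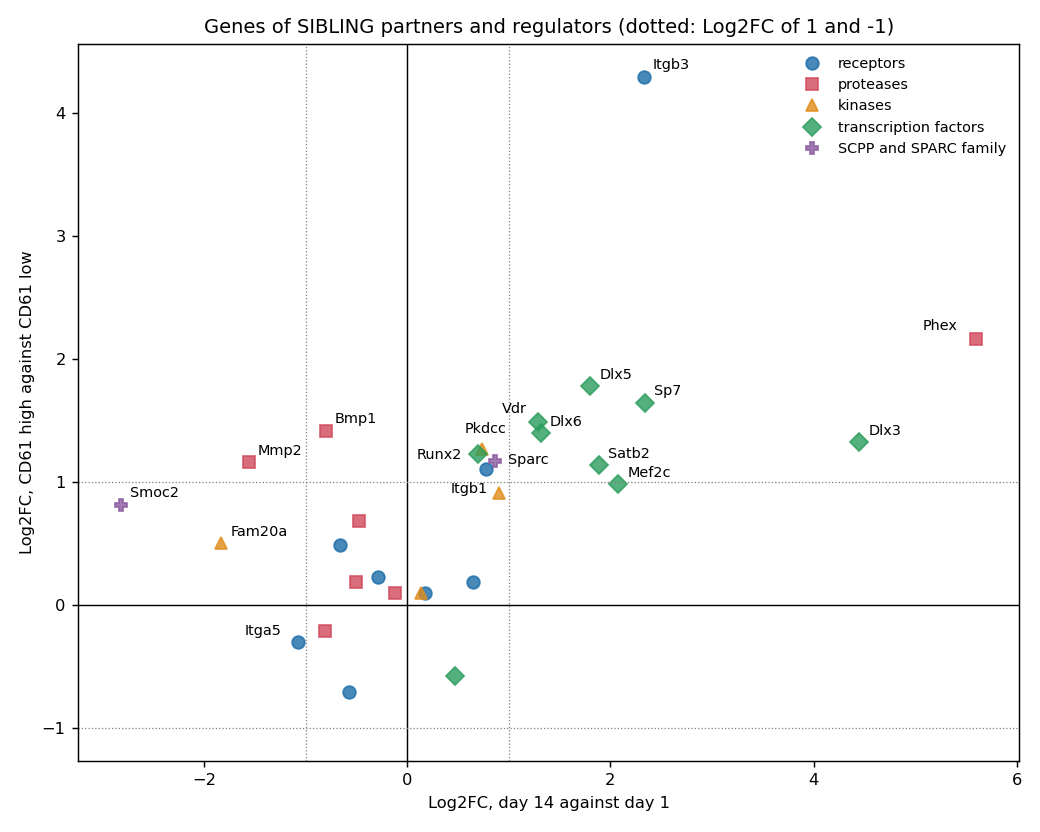
Log2FC in the sort, CD61 high over CD61 low (vertical), against Log2FC between day 14 and day 1 (horizontal) for the listed partner genes tested in both experiments, with a symbol for each list and dotted lines at 1 and -1. Mmp2 lies at -1.56 and 1.16, Phex is farthest to the right at 5.60 and Itgb3 is the highest at 4.30.

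The other genes around the cluster were examined in the same way. Within 500 kb on either side, and between the members, the annotation holds 41 other genes, of which 6 were tested in the differentiation experiment and 7 in the sort. None was called in any of the 6 comparisons by limma or edgeR, nor by edgeR on the recovered reads or DESeq2. With 7.51% of all genes called higher and 5.9% lower on day 14, and 4.84% and 4.37% in the sort, 0 of 6 or 7 is near the share of all genes and is no result about the neighbours. At an unadjusted p below 0.05, 1 was higher and 3 were lower on day 14, and 2 were higher and 2 lower in the sort. The adjusted p threshold of a call, at any Log2FC, was passed by 68.6% of all genes on day 14 and 35.4% in the sort. The Log2FC of the neighbours ranged from -0.46 to 0.69 on day 14 and from -0.60 to 0.27 in the sort. *Pkd2*, which starts 18005 bases beyond *Spp1*, had 229.8, 192.4, 252.2 and 195.9 CPM on days 1, 7, 10 and 14 and a Log2FC of -0.23 on day 14, when *Spp1* was at 0.72. *Nudt9*, the nearest tested gene on the side of *Dspp*, had a Log2FC of 0.10 on day 14 and 0.26 in the sort. *Sparcl1*, the relative closest to the cluster, stayed at a mean of at most 0.393 CPM on each day.

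**Figure D5:**
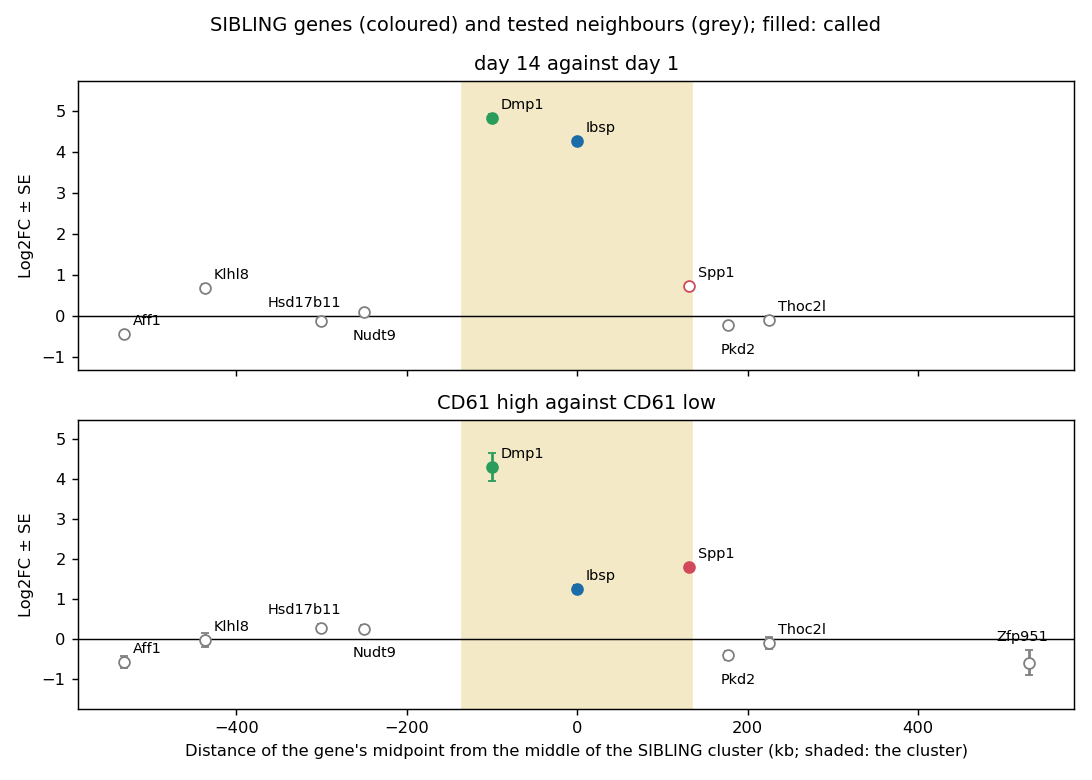
Log2FC with SE of the SIBLING genes (coloured) and of their tested neighbours (grey) on day 14 against day 1 (top) and in CD61 high against CD61 low cells (bottom), by distance in kb from the middle of the cluster, which is shaded. Filled points were called. Dmp1 and Ibsp stand at 4.83 and 4.27 in the top panel, and all neighbours lie between -0.46 and 0.69.

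Genes with a course like that of a member were sought by the distance between their 4 Log2FC values (days 7, 10 and 14 against day 1, and the sort) among 9859 genes that passed both filters and a mean of 5 CPM. Closest to *Ibsp* was *Dlx3* (distance 0.302), with Log2FC of 4.77, 4.12, 4.45 and 1.33 beside 4.70, 3.90, 4.27 and 1.24 for *Ibsp*. *Hrc* (0.402) and *Pcsk6* (0.456) followed. Closest to *Spp1* were *Smad6* (0.410), *Adamts10* (0.488) and *Rnf150* (0.499). Closest to *Dmp1* was *Cdo1*, at a distance of 2.04 with a Log2FC of 2.48 in the sort. *Slc36a2* (2.39) and the osteocalcin gene *Bglap* (2.40) followed. The day values carry the pseudocount of 1, and the sort value, 4.29 for *Dmp1*, does not. On log2(TPM + 1) *Dmp1* was at 2.43 in the sort. The part of these unlike scales in its larger distances was not tested.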

How the data were processed

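The members and gene lists were chosen with earlier results of these data known. For the differentiation experiment the authors used STAR for alignment and HTSeq-count for counting, and the deposited CPM values have no further scaling. The build and annotation of that table are not given in the sources used here. All CPM values (100%) were whole multiples of 1 read within 0.01, which gave back the reads. For the sort the authors deposited estimated counts and TPM per transcript from Salmon (GRCm39, release 104). Of 116747 transcripts, 115556 matched GENCODE M39 (99.3% to 99.4% of counts), and estimated counts were summed per gene and rounded.

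Differentiation libraries were compared with limma 3.58.1 (trend) on log2(CPM + 1) for the 12725 genes that passed 1 CPM in any library, with day as the only term. Sorted libraries were compared with edgeR 4.0.16 (quasi-likelihood, TMM, at least 5 normalized counts in all 6 libraries, 12077 genes) in R 4.3.3. A call needed an absolute Log2FC over 1 together with an adjusted p (Benjamini-Hochberg, over all genes tested) under 0.01. 1 listed gene is not reported here. The fits were tested on simulated data. Replicates differed by 2.28 to 19.9 chi-square units per gene, above counting noise. Levels per kb use the deposited gene lengths, and limits for a count of 0 use 3 counts. Named genes are the members, the called or described genes of the lists, and the 3 genes nearest to each tested member. Alternatives were DESeq2 1.42.0, other scalings, filters, pseudocounts and tests, a replicate block and each library left out. Promoters are from RefSeq (GRCm38.p6). Figures were drawn with matplotlib 3.10.9.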

Additional observations from a re-analysis of the deposited data

How the results depend on the processing

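The 18 Log2FC values of *Dmp1*, *Ibsp* and *Spp1* were compared with 300 values under alternatives, of which 297 kept their direction and their side of the threshold and 0 reversed. The exceptions were all *Ibsp* in the sort, with 0.944 when scaled by library size alone, 1.244 in a test against a Log2FC of 1 (adjusted p = 0.068, edgeR), and 0.943 on log2(TPM + 1). Without the filter, edgeR on the recovered reads, chosen after the data had been seen, called 1 member higher between day 10 and day 14 (*Mepe*) in place of 0, a call that was lost without day 10 replicate 1, day 10 replicate 2 or day 14 replicate 2. The same fit also called *Mepe* higher on day 7 and on day 14 against day 1. *Mepe* entered that test only through the few reads of the later days, so none of its calls is used here. With scaling by library size alone the partner genes called in the sort were 8 higher and 1 lower in place of 14 and 0, and the cause was not tested. Over all genes that scaling called 316 higher and 963 lower in place of 585 and 528, and the test against a Log2FC of 1 called 188 and 213. With edgeR on the recovered reads, 876 genes were called higher on day 7 in place of 571, 334 between day 7 and day 10 in place of 182, and 504 between day 10 and day 14 in place of 266. *Dmp1* in the sort was at 2.43 on log2(TPM + 1) in place of 4.29. Leaving out each library in turn gave Log2FC in the sort of 3.98 to 4.66 for *Dmp1*, 1.14 to 1.31 for *Ibsp* and 1.71 to 1.85 for *Spp1*, with adjusted p of at most 5.6e-05 (edgeR).

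The labels do not say that equal replicate numbers share a culture, and same-numbered sorted libraries correlated at -0.321, 0.22 and -0.061 in their deviations from the group means. With the replicate block the sort gave 4.28 for *Dmp1*, 1.25 for *Ibsp* and 1.80 for *Spp1*, and no call of these members changed in any comparison. Depth limits *Mepe* and *Dspp*, for which 3 reads are 0.0874 to 0.161 CPM in a single library. With 2 replicates per day, the estimate of spread rests on all 8 libraries together.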
